A study of Cucumis sativus with 12 samples.

Results

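The genes described here are the annotated members of the jasmonate pathway, with the lipoxygenases outside it, in RNA from cucumber (Cucumis sativus) stigma and style. They were chosen by their Swiss-Prot description: a name with lipoxygenase, allene oxide, 12-oxophytodienoate, TIFY, jasmon or coronatine, and at least 30 counts summed over the 12 libraries. Such a name was carried by 72 of 24345 genes in the deposited table. Of these, 23 were below the count minimum, 12 of them with no count at all, and 5 lipoxygenases were left out by name (Csa2G023910, Csa2G023920, Csa2G023900, Csa2G028480 and Csa2G028500), which leaves 44 members. The members nearest the minimum were Csa2G027460 with 35 counts, Csa2G023850 with 41 and Csa4G287530 with 43, and the nearest genes outside it were Csa1G642550 with 28 and Csa2G026940 and Csa4G286940 with 24 each. By name the members were 11 9-lipoxygenases, 7 chloroplast lipoxygenases, 3 allene oxide synthases, 2 allene oxide cyclases and 3 oxophytodienoate reductases. The others were 3 enzymes that conjugate or methylate jasmonate, 1 receptor and 14 TIFY proteins. All chloroplast lipoxygenases were taken as 13-lipoxygenases, though Csa4G287530, Csa5G590080 and Csa5G590090 carry no 13 in the name. Because the 5 lipoxygenases were left out, the counts for 9-lipoxygenases below are not counts of the whole family.

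The 12 libraries came from 4 genotypes at anthesis, the opening of the flower, with 3 biological replicates each. Beside wild type (WT) there were plants homozygous for a SPATULA mutation (Csspt) or an ALCATRAZ mutation (Csalc), and plants with both (Csspt Csalc, the double mutant). Both genes encode bHLH factors that shape the carpel, and the series asks what their loss does to the transmitting tract, through which pollen tubes grow. Alleles, plants per library and the way the lines were made are not stated in the labels.

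Lipoxygenases add oxygen to polyunsaturated fatty acids, and the prefix 9 or 13 gives the carbon that they oxidise. In the chloroplast, 13-lipoxygenases start jasmonate synthesis: allene oxide synthase and allene oxide cyclase turn their product into oxophytodienoic acid (OPDA), a reductase and beta-oxidation in the peroxisome turn OPDA into jasmonic acid, and a conjugating enzyme joins it to isoleucine. The receptor COI1 binds this conjugate together with TIFY proteins of the JAZ type, which then are degraded and release transcription factors such as MYC2. In Arabidopsis flowers jasmonate is known for its part in stamen maturation and flower opening. The 9-lipoxygenases feed other oxylipins, made in wounded, infected or ageing tissue, and are not part of jasmonate synthesis.

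Libraries held 32155631 to 37986853 counts. Csalc replicate 3 stood apart: its log2 CPM correlated with the other libraries at 0.810 to 0.856, against 0.974 to 0.985 within groups and 0.927 to 0.975 between groups among the other libraries. The biological coefficient of variation, the spread shared by all genes in the fit, was 0.363 with it and 0.193 without it. Results are therefore given from the 12 libraries and again without Csalc replicate 3, a choice made after the data were seen. A gene is called where edgeR's quasi-likelihood test gives a Benjamini-Hochberg adjusted p under 0.05 over all genes tested, and all adjusted p-values below come from that test unless another is named. Levels are the authors' FPKM, which are per length and so can be compared between genes, while fold changes come from counts. On the log2(FPKM + 1) scale the median gene lay above WT by 0.06 in Csspt, 0.16 in Csalc and 0.11 in the double mutant, whereas the median log2 fold change of the double mutant over WT from scaled counts was 0.03. In bulk tissue, fewer cells of a type and less RNA per cell cannot be told apart.

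In WT the 3 most abundant members were TIFY genes and a conjugating enzyme, and lipoxygenases ranged from 0 counts to a mean of 79.8 FPKM. By WT mean, 9-lipoxygenases held ranks 4, 6, 9 and 10 among the members. TIFY 10B (Csa7G448810) was highest, at 158, 251 and 234 FPKM in the 3 WT libraries, followed by TIFY 6B (Csa5G628650) at 153, 213 and 198 FPKM and the conjugating enzyme JAR6 (Csa3G119760) at 91.4, 89.5 and 91.0 FPKM. These were above every lipoxygenase. The highest 9-lipoxygenase was Csa2G023340, at 79.8 ± 6.95 FPKM (SD, n = 3), and the highest 13-lipoxygenase was Csa4G288610, at 29.6 ± 3.61 FPKM. Counts were 0 in all 3 WT libraries for Csa4G288070, Csa4G287530, Csa2G028490 and Csa2G027460.

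In the double mutant, the scarce 9-lipoxygenases Csa7G374620 and Csa7G374630, a pair with 1 RefSeq hit, rose over WT with 12 libraries. Without Csalc replicate 3, 5 of 9 tested 9-lipoxygenases rose (5 of 8 without Csa2G028490, tested only through the double mutant), and these 5 held 2 such pairs. Members named for 13-lipoxygenase, allene oxide synthase 3, allene oxide cyclase, reductase 1 and the conjugating enzyme JAR6 rose too. Reductase 3 did not, nor did Csa2G360780, the synthase whose KEGG hit is the RefSeq gene AOS. Of 14 TIFY genes in that fit, 3 named for JAZ repressors fell, and 2 rose: TIFY 8 and a TIFY 9 gene named for JAZ10. Without that TIFY 9 gene, which passed the filter on low counts only through the double mutant, 1 rose and 3 fell of 13. The most abundant, TIFY 10B and TIFY 6B, were not called. The most abundant 9-lipoxygenase fell in that fit. Of 44 members, 39 passed the filter on low counts, and 3 rose and 0 fell with 12 libraries, where 3.77% of all 18850 genes tested were called higher and 3.41% lower. The third, beside those 9-lipoxygenases, was the 13-lipoxygenase Csa4G288070. It passed the filter only through its double mutant counts, as did Csa2G028490, TIFY 9 (Csa4G009880) and Csa3G002690, so its call was bound up with that selection. Among the 35 other members tested, 2 rose and 0 fell. Without Csalc replicate 3, 14 rose and 4 fell of 40 tested, against 19.2% of genes called higher and 16.8% lower. Leaving aside 4 members that passed only through the double mutant in that fit (Csa4G287530 in place of Csa3G002690), 12 rose and 4 fell of 36. The median log2 fold change of the tested members was 0.44 with 12 libraries, or 0.11 over those 35, against 0.03 for all genes tested. It was 2.56 over 9 tested 9-lipoxygenases, 0.94 over 6 tested 13-lipoxygenases and -0.12 over 14 TIFY genes. A fit of the WT and double mutant libraries alone gave 14 higher and 3 lower of 37, with 20.1% and 16.0% of all genes. DESeq2 with 12 libraries called 6 members higher and 2 lower, with 7.52% and 6.98% of all genes. With 12 libraries no member was called once any 1 of the WT or double mutant libraries was left out, and without Csalc replicate 3 the count ran from 12 to 15 higher and from 2 to 5 lower as each further library was left out.

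**Figure D1:**
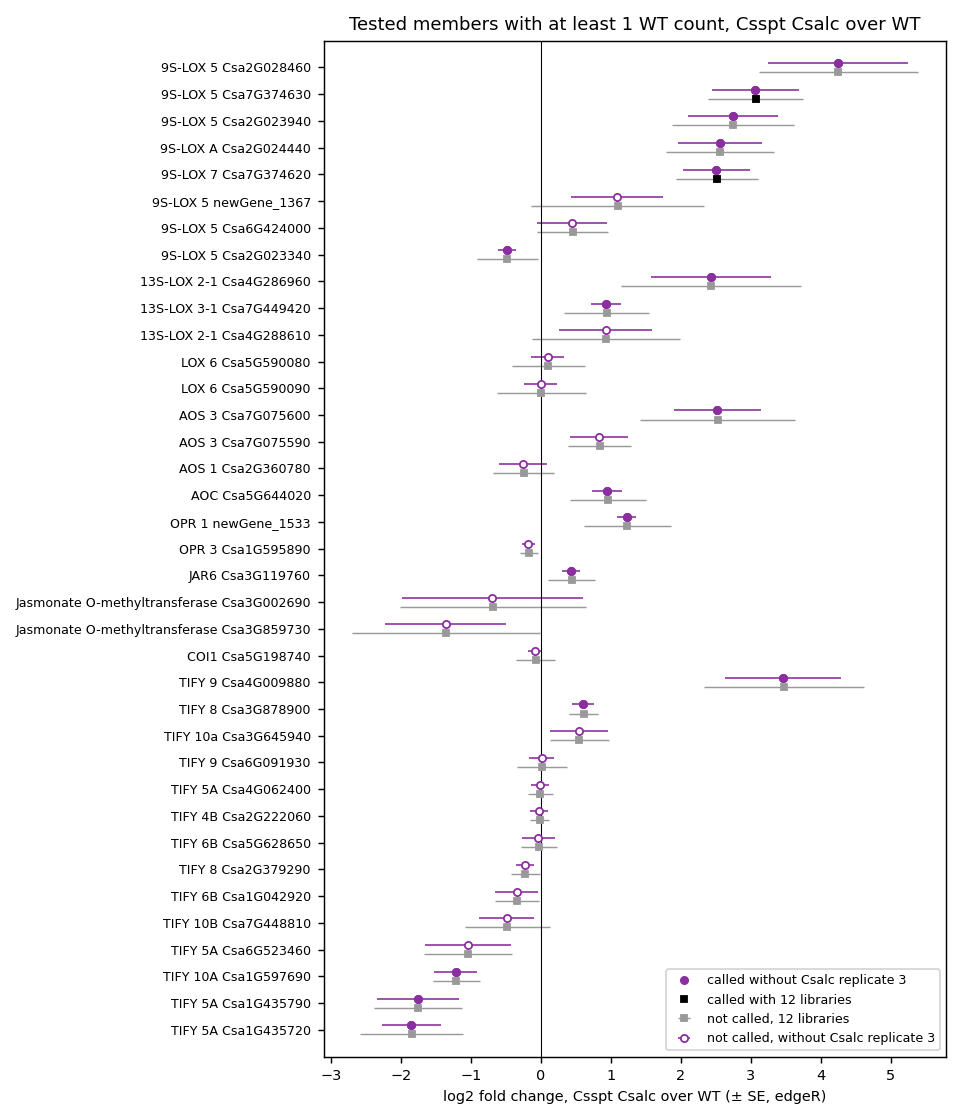
Fold changes of the tested members with at least 1 count in WT, double mutant over WT, on a log2 axis. Squares are the fit of 12 libraries and circles the fit without Csalc replicate 3, with bars of 1 standard error; filled black squares and filled purple circles are called. Most 9-lipoxygenases lie right of 0 and the lowest values are those of the TIFY 5A genes Csa1G435720 and Csa1G435790.

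The 9-lipoxygenases held the largest differences. Csa2G023940, named 9S-lipoxygenase 5, had 15.5, 53.8 and 30.9 FPKM in WT, 73.1, 41.4 and 61.1 in Csspt, 65.2, 34.4 and 373 in Csalc, and 497, 164 and 78.8 in the double mutant. All 3 double mutant libraries lay above all 3 WT libraries, but they spread widely, and replicate 3 was near the highest Csspt library. The log2 fold change of the double mutant over WT was 2.75 ± 0.87 (SE, adjusted p = 0.0846) with 12 libraries and 2.74 ± 0.64 (adjusted p = 0.00811) without Csalc replicate 3. It was 1.76 when double mutant replicate 1 was left out as well. Csa2G024440, named 9S-lipoxygenase A, had 19.4, 50.1 and 27.7 FPKM in WT and 418, 137 and 75.6 in the double mutant, which do not overlap. Its log2 fold change was 2.56 ± 0.77 (adjusted p = 0.0719) with 12 libraries and 2.56 ± 0.60 (adjusted p = 0.00815) without Csalc replicate 3, and 1.61 without double mutant replicate 1 too. Per the deposited KEGG annotation both genes hit the same RefSeq gene, LOX2 of assembly Cucumber_9930_V3, and their counts stood at a ratio of 1.37 to 2.43 over the 12 libraries, so reads may be shared and their separate values are uncertain.

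A second pair moved from a low level. Csa7G374620, named 9S-lipoxygenase 7, had 0.616, 1.10 and 0.681 FPKM in WT, 2.96, 0.863 and 0.906 in Csspt, 1.06, 1.36 and 4.21 in Csalc, and 6.71, 3.61 and 4.80 in the double mutant. Every double mutant library was above every WT and Csspt library, and Csalc replicate 3 was within the double mutant range. It rose by a log2 fold change of 2.52 ± 0.59 (adjusted p = 0.0302) with 12 libraries and 2.51 ± 0.48 (adjusted p = 0.00276) without Csalc replicate 3. Csa7G374630, named 9S-lipoxygenase 5, had 0.279, 0.636 and 0.355 FPKM in WT and 5.39, 3.18 and 3.60 in the double mutant, and rose by 3.07 ± 0.68 (adjusted p = 0.0249) and 3.07 ± 0.62 (adjusted p = 0.00395) in the same fits. These 2 genes also hit 1 RefSeq gene and their counts had a ratio of 1.50 to 3.63.

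Other 9-lipoxygenases ranged from silent to abundant. Csa2G028460 had 0.132, 0.250 and 0 FPKM in WT and 5.57, 1.73 and 1.89 in the double mutant, with a log2 fold change of 4.25 ± 1.14 (adjusted p = 0.0504) with 12 libraries. Without Csalc replicate 3 it rose by 4.24 ± 1.00 (adjusted p = 0.00831), or by 3.53 without double mutant replicate 1 and 5.05 without WT replicate 2 as well. Csa2G028490, named 9S-lipoxygenase 4, had 0 counts in WT and in Csspt, and 90, 59 and 0 counts in the double mutant. Against a floor of 3 counts over the WT group it was at least 42.9-fold higher, carried by 2 of 3 libraries, and was not called (adjusted p = 0.149 with 12 libraries and 0.0504 without Csalc replicate 3). Csa2G023340, the most abundant 9-lipoxygenase of WT, went the other way: 87.8, 75.3 and 76.3 FPKM in WT and 49.9, 72.1 and 63.5 in the double mutant. The groups did not overlap. It fell by 0.49 ± 0.13 on the log2 scale (adjusted p = 0.0142) without Csalc replicate 3, but adjusted p was 0.534 with 12 libraries and 0.0548 when WT replicate 1 was left out in addition. Csa6G424000, whose KEGG hit is the RefSeq gene LOX9, had 71.5, 26.8 and 51.4 FPKM in WT and 64.0, 100.1 and 57.8 in the double mutant, an overlap, and the new gene model newGene_1367 had 1.05, 15.3 and 7.01 against 15.2, 20.0 and 18.7. Neither was called in either fit. Csa2G027460 and Csa2G023850 were below the filter on low counts in both fits, and Csa2G027460 had 23 counts in the double mutant and none in WT. The 8 members on chromosome 2 with such a hit corresponded to 6 RefSeq genes within a run of 12 protein-coding genes of that assembly.

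**Figure D2:**
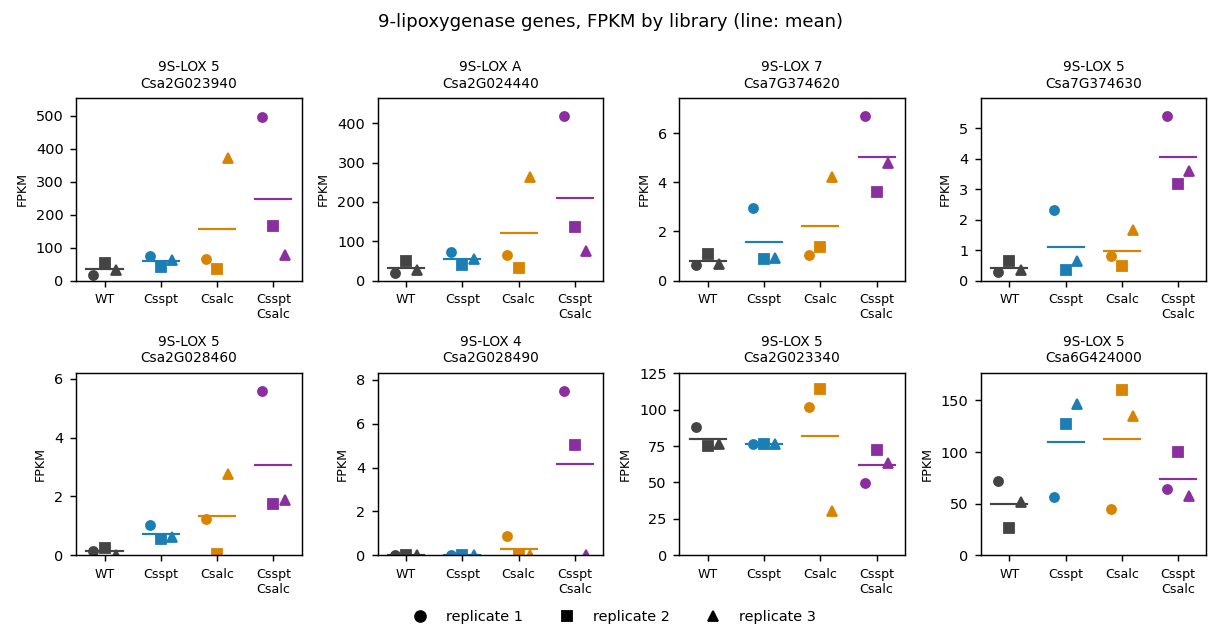
FPKM of 8 9-lipoxygenase genes in each library, by genotype, with the symbol giving the replicate number and the line the group mean. For the upper 4 genes all double mutant libraries lie above all WT libraries, and Csalc replicate 3 lies within the double mutant range for Csa2G023940, Csa2G024440 and Csa7G374620, whereas Csa2G023340 is lower in the double mutant than in WT.

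Among 13-lipoxygenases, the enzymes that start jasmonate synthesis, 1 of 6 tested rose with 12 libraries (3.77% of all genes) and 3 of 7 without Csalc replicate 3 (19.2%). Without those that passed the filter only through the double mutant, it was 0 of 5 and 2 of 5. Csa7G449420, named 13S-lipoxygenase 3-1, had 19.1, 15.8 and 22.9 FPKM in WT, 27.8, 22.0 and 18.5 in Csspt, 41.0, 26.2 and 4.72 in Csalc, and 39.5, 35.6 and 45.0 in the double mutant. The double mutant was above WT and Csspt in every library. The log2 fold change over WT was 0.94 ± 0.60 (adjusted p = 0.374) with 12 libraries, and 0.94 ± 0.21 (adjusted p = 0.00665) without Csalc replicate 3, which was the lowest library of all for this gene. Csa4G288070, named 13S-lipoxygenase 2-1, was counted in the double mutant alone, with 14, 26 and 13 counts, or 0.262, 0.500 and 0.268 FPKM. Against 3 counts over the WT group it was at least 15.3-fold higher. It was called in both fits, but since only its double mutant counts brought it into the test, those calls are no support for a difference. Csa4G288610, of the same name, varied widely, with 32.5, 25.6 and 30.8 FPKM in WT, 16.6, 7.50 and 9.64 in Csspt, 20.7, 32.5 and 493 in Csalc, and 123, 55.8 and 7.99 in the double mutant. Its double mutant libraries lay on both sides of WT, and it was not called against WT in either fit. All 3 Csspt libraries were below all 3 WT libraries, with a log2 fold change of -1.46 ± 1.07 (adjusted p = 0.873) with 12 libraries and -1.46 ± 0.27 (adjusted p = 0.0272) in the fit of WT and Csspt alone.

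The remaining 13-lipoxygenases moved less or were near the limit of counting. Csa4G286960 had 0.0943, 0.0787 and 0.140 FPKM in WT and 0.891, 0.390 and 0.634 in the double mutant. The groups did not overlap, yet its call without Csalc replicate 3 was marginal (log2 fold change 2.43 ± 0.86, adjusted p = 0.0479; adjusted p = 0.28 with 12 libraries) and held in 2 of 11 fits with a further library left out. Csa5G590090 and Csa5G590080, both named lipoxygenase 6 and hitting 1 RefSeq gene, had log2 fold changes of 0.01 ± 0.63 and 0.11 ± 0.52 in the double mutant with 12 libraries. In Csspt, Csa5G590090 had 10.5, 9.14 and 8.74 FPKM, below 15.4, 14.3 and 15.4 in WT, and was lower by -0.73 ± 0.14 (adjusted p = 0.0286) in the fit of WT and Csspt alone, with adjusted p = 0.907 with 12 libraries. Csa4G287530 was tested only without Csalc replicate 3 and was not called.

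Of allene oxide synthase and allene oxide cyclase, 1 gene each rose in the double mutant without Csalc replicate 3 and none with 12 libraries. Allene oxide cyclase Csa5G644020, which closes the ring of the OPDA precursor, had 4.43, 5.83 and 5.53 FPKM in WT, 7.16, 10.4 and 9.46 in Csspt, 8.31, 6.81 and 47.4 in Csalc, and 14.9, 9.97 and 8.50 in the double mutant. Every mutant library was above every WT library. In the double mutant the log2 fold change was 0.96 ± 0.54 (adjusted p = 0.31) with 12 libraries and 0.95 ± 0.21 (adjusted p = 0.00636) without Csalc replicate 3. Allene oxide synthases of jasmonate synthesis make the unstable epoxide that the cyclase uses. Csa7G075600 is named allene oxide synthase 3, without the chloroplast label of Csa2G360780, and whether it serves jasmonate synthesis was not tested. Csa7G075600 had 0.0748, 0.275 and 0.273 FPKM in WT and 2.10, 0.926 and 1.05 in the double mutant. It rose by a log2 fold change of 2.52 ± 0.62 (adjusted p = 0.0105) without Csalc replicate 3, whose own level was 5.46 FPKM, and was not called with 12 libraries (adjusted p = 0.194). Csa7G075590 was the highest allene oxide synthase by name, with 16.4, 34.0 and 34.5 FPKM in WT and 83.8, 34.9 and 47.0 in the double mutant, but its KEGG hit is the RefSeq gene HPL, a name for hydroperoxide lyase, the competing enzyme of the same family. It was not called (adjusted p = 0.292 with 12 libraries). Csa2G360780, whose hit is the RefSeq gene AOS, had 5.80, 9.16 and 9.16 FPKM in WT and 11.2, 5.03 and 5.91 in the double mutant, an overlap, with a log2 fold change of -0.25 ± 0.43. The second cyclase gene, Csa5G366670, was below the filter and reached 3.13 FPKM in Csalc replicate 3.

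The oxophytodienoate reductases split. The new gene model newGene_1533 (Cucumis_sativus_newGene_1533), named reductase 1, had 29.2, 28.0 and 30.8 FPKM in WT, 58.7, 68.4 and 62.4 in Csspt, 73.6, 102 and 10.5 in Csalc, and 64.7, 84.2 and 75.0 in the double mutant. All mutant libraries but Csalc replicate 3 were above 50 FPKM and no WT library was. Without Csalc replicate 3 it rose in each mutant, by a log2 fold change of 1.04 ± 0.13 in Csspt (adjusted p = 0.00516), by 1.55 ± 0.15 in Csalc (adjusted p = 0.000973) and by 1.23 ± 0.13 in Csspt Csalc (adjusted p = 0.000162). With 12 libraries the adjusted p-values were 0.804, 0.319 and 0.253. In Arabidopsis, reductase 1 acts little on the jasmonate precursor and reductase 3 is the one needed for jasmonate. Reductase 3 (Csa1G595890) had 39.2, 49.1 and 46.3 FPKM in WT and 43.0, 43.3 and 43.2 in the double mutant, with a log2 fold change of -0.17 ± 0.12 (adjusted p = 0.443) with 12 libraries. Its levels overlapped WT in every mutant. The third reductase-like gene, Csa4G663690, had 43 counts in all and was not tested.

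**Figure D3:**
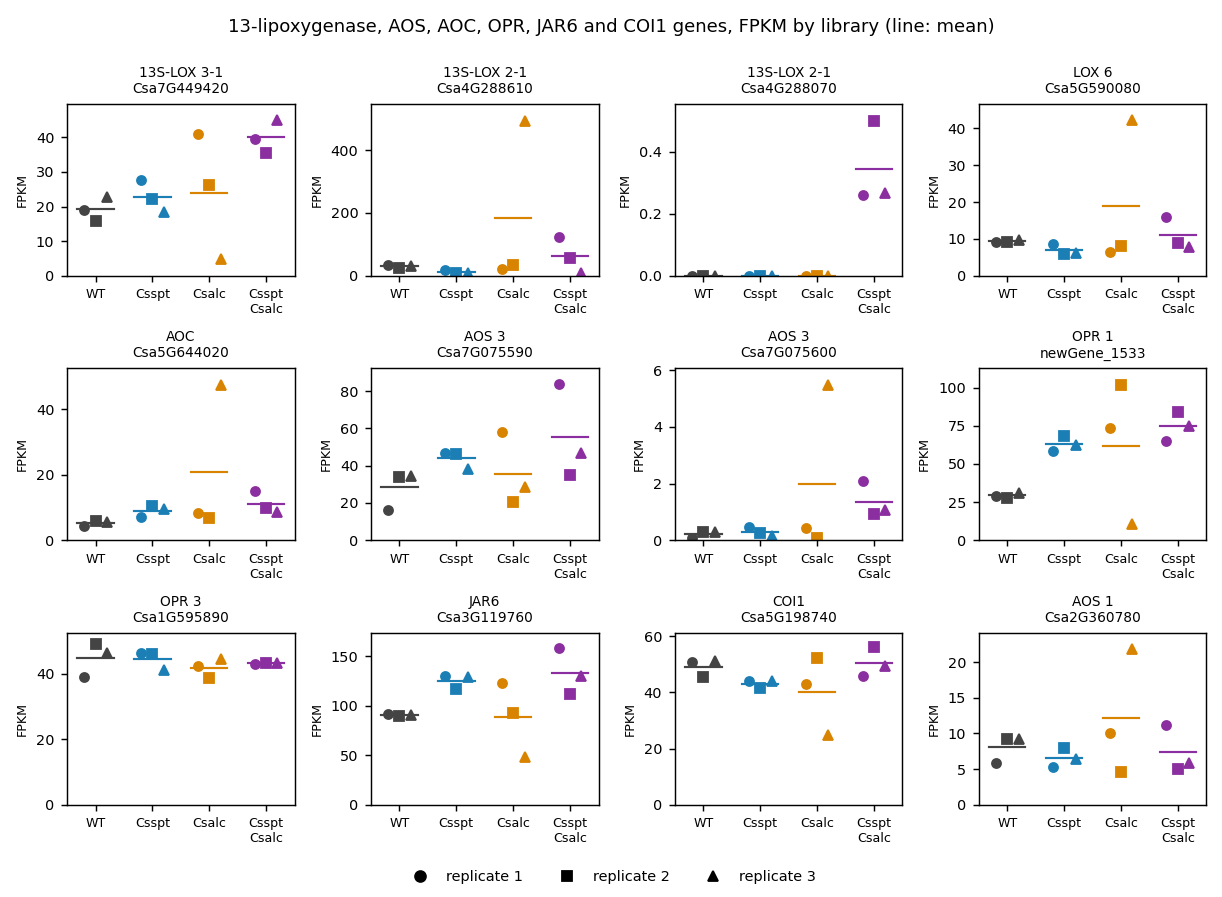
FPKM of 12 genes from 13-lipoxygenases to the receptor in each library, by genotype, with the symbol giving the replicate number and the line the group mean. Reductase 1 (newGene_1533) is near 30 FPKM in WT and above 50 FPKM in each mutant except Csalc replicate 3, and reductase 3 and COI1 stay within narrow ranges outside that library.

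Conjugation and perception moved little. JAR6 (Csa3G119760), which joins jasmonic acid to an amino acid, had 91.4, 89.5 and 91.0 FPKM in WT, 130, 117 and 129 in Csspt, 123, 93.2 and 48.1 in Csalc, and 159, 112 and 130 in the double mutant. The double mutant and Csspt lay above WT in every library. The double mutant rose by 0.44 ± 0.13 on the log2 scale (adjusted p = 0.0243) without Csalc replicate 3. The adjusted p was 0.451 with 12 libraries, and the call held in 7 of 11 fits with a further library left out. It was lost without WT replicate 1, 2 or 3 or double mutant replicate 1, with adjusted p up to 0.0782. The receptor COI1 (Csa5G198740) had 50.8, 45.6 and 51.1 FPKM in WT and 45.9, 56.2 and 49.4 in the double mutant, an overlap, and a log2 fold change of -0.08 ± 0.10 without Csalc replicate 3. The 2 genes named jasmonate O-methyltransferase, which make the volatile methyl ester, were scarce: Csa3G859730 had 1.81 ± 0.957 FPKM in WT and 0.762 ± 0.952 in the double mutant (SD, n = 3), and Csa3G002690 had 0.128 ± 0.154 and 0.0859 ± 0.149. Neither was called. The non-redundant protein name of Csa3G002690 is a salicylate methyltransferase.

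No TIFY gene was called in the double mutant with 12 libraries, while 2 rose and 3 fell of 14 without Csalc replicate 3. In that fit 19.2% of all genes were called higher and 16.8% lower. Without TIFY 9 (Csa4G009880), which passed the filter only through the double mutant, 1 rose and 3 fell of 13. TIFY 10A (Csa1G597690), named for the Arabidopsis repressor JAZ1, had 55.9, 87.2 and 79.4 FPKM in WT, 69.2, 75.9 and 77.0 in Csspt, 83.2, 36.6 and 50.8 in Csalc, and 48.9, 31.5 and 24.4 in the double mutant. All double mutant libraries were below all WT and Csspt libraries. Its log2 fold change over WT was -1.21 ± 0.34 (adjusted p = 0.058) with 12 libraries and -1.21 ± 0.31 (adjusted p = 0.0117) without Csalc replicate 3. TIFY 5A is the name of the Arabidopsis repressor JAZ8, and 4 members carried it. Csa1G435720 had 8.36, 9.12 and 10.3 FPKM in WT, 4.19, 2.12 and 2.94 in Csspt, 9.44, 4.71 and 0.871 in Csalc, and 4.91, 1.50 and 2.00 in the double mutant. Both Csspt and the double mutant lay below WT without overlap. In the double mutant it fell by 1.85 ± 0.42 on the log2 scale (adjusted p = 0.00723) without Csalc replicate 3, or by 2.48 without double mutant replicate 1 too, and adjusted p was 0.16 with 12 libraries. In Csspt its log2 fold change was -1.65 ± 0.42 (adjusted p = 0.0528) without Csalc replicate 3 and -1.64 ± 0.26 (adjusted p = 0.0148) in the fit of WT and Csspt alone.

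Csa1G435790, another TIFY 5A, had 2.06, 1.36 and 1.22 FPKM in WT and 0.887, 0.450 and 0.100 in the double mutant. The groups did not overlap, and it fell by 1.76 ± 0.59 (adjusted p = 0.0397) without Csalc replicate 3, a call that held in 4 of 11 fits with a further library left out and was not made with 12 libraries (adjusted p = 0.121). The other two TIFY 5A genes differed in level but neither was called: Csa4G062400 had 21.7 ± 3.04 FPKM in WT and 23.4 ± 3.22 in the double mutant, and Csa6G523460 had 2.32 ± 0.864 and 1.22 ± 0.728 (SD, n = 3). TIFY 9 (Csa4G009880), named for the Arabidopsis repressor JAZ10, went from 0.124, 0.135 and 0.0745 FPKM in WT to 2.61, 0.651 and 1.93 in the double mutant. Its counts were 4, 4 and 2 in WT and 69, 17 and 47 in the double mutant, a log2 fold change of 3.46 ± 0.83 without Csalc replicate 3. It was called in that fit and not with 12 libraries, but it passed the filter only through the double mutant, so its call is no support either. The more abundant TIFY 9 (Csa6G091930) had a log2 fold change of 0.01 ± 0.18 in the same fit.

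TIFY 8 (Csa3G878900) had 16.2, 15.6 and 15.9 FPKM in WT, 22.6, 26.4 and 36.9 in Csspt, 16.7, 20.1 and 35.1 in Csalc, and 24.5, 29.3 and 24.7 in the double mutant. In Arabidopsis TIFY8 has the TIFY motif but is not a JAZ repressor. The mutant libraries were all above the WT libraries. Without Csalc replicate 3 it rose by 0.60 ± 0.16 (adjusted p = 0.0139) in the double mutant and by 0.76 ± 0.16 (adjusted p = 0.0269) in Csspt, where the call held in 6 of 11 fits with a further library left out. The adjusted p-values were 0.0982 and 0.29 with 12 libraries. The 2 most abundant members were not called: TIFY 10B (Csa7G448810) had 245, 125 and 133 FPKM in the double mutant and TIFY 6B (Csa5G628650) had 269, 168 and 173, both overlapping WT. The other 5 TIFY genes (Csa1G042920, Csa3G645940, Csa2G222060, Csa2G379290 and the TIFY 9 gene Csa6G091930) had group means between 6.57 and 19.5 FPKM in WT and the double mutant, and none was called.

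**Figure D4:**
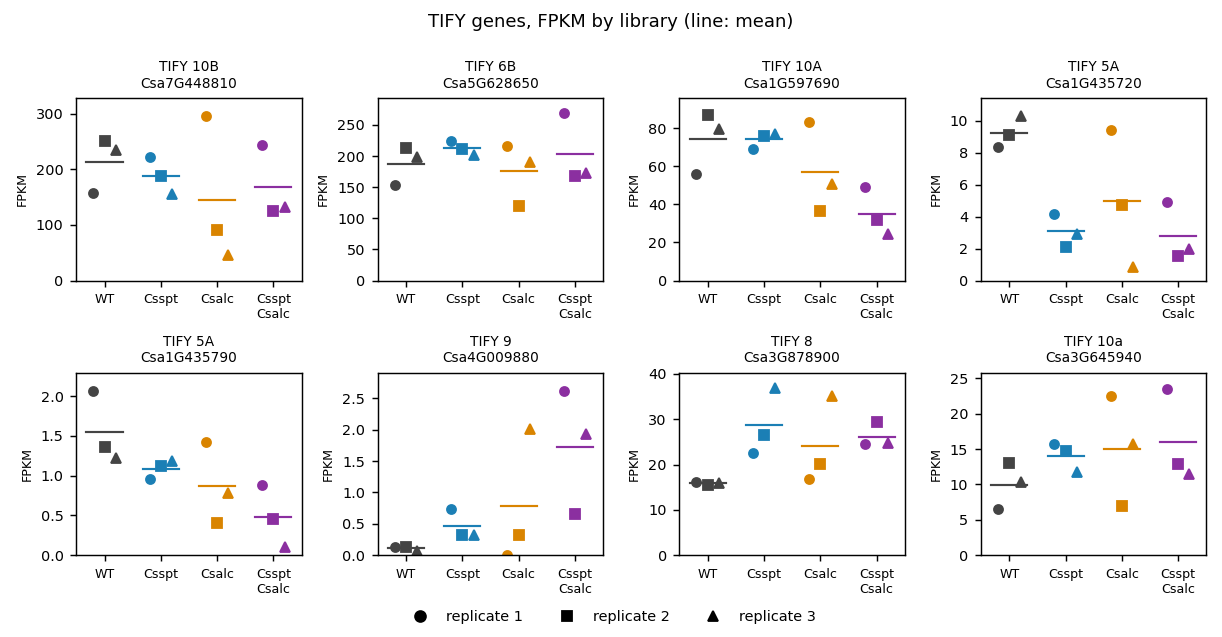
FPKM of 8 TIFY genes in each library, by genotype, with the symbol giving the replicate number and the line the group mean. TIFY 10A and both low TIFY 5A genes are lower in the double mutant than in WT, TIFY 8 is higher, and replicate 1 is the highest double mutant library for 7 of the 8 genes.

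The double mutant libraries themselves differed along these genes. Replicate 1 was the highest of the 3 for 29 of 39 tested members (74.4%), against 45.9% of all genes tested. It was the highest for 13 of 14 TIFY genes, those that were lower than WT included, and for 10 of 15 lipoxygenases. In FPKM, 16 of 44 members had all 3 double mutant libraries above all 3 WT libraries and 4 had all below, while among all genes tested 33.7% were above and 17.5% below.

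Fewer members were called in the single mutants. With 12 libraries no member was called in Csspt, where 0.00531% of genes were called higher and 0.0531% lower, or in Csalc, where 0.159% were called higher and 0.626% lower. By unadjusted edgeR p under 0.05 there were 2 members in Csspt and 4 in Csalc, and DESeq2 called 0 (0.549% of genes higher, 1.01% lower) and 1 (4.7% and 3.19%). When Csalc replicate 3 was left out, reductase 1 and TIFY 8 rose in Csspt (1.99% of genes higher, 2.73% lower) and reductase 1 rose in Csalc (1.79% higher, 2.57% lower). A fit of WT and Csspt libraries alone called 6 members of Csspt, with 2.88% of genes higher and 3.89% lower: reductase 1, TIFY 8 and JAR6 rose, and Csa1G435720, Csa4G288610 and Csa5G590090 fell. In Csspt the median log2 fold change was 0.74 over 9 tested 9-lipoxygenases with 12 libraries, and -0.25 over 6 tested 13-lipoxygenases, against 0.02 for all genes. In Csalc these medians were 1.20 and 0.88, against 0.06 for all genes, and 0.55 and 0.0 without Csalc replicate 3, against 0.02. They include members tested only through the double mutant, such as Csa4G288070, which had 0 counts in WT and both single mutants. Without such members, 8 9-lipoxygenases and 5 13-lipoxygenases had medians of 0.82 and -0.50 in Csspt with 12 libraries. In Csalc these were 1.10 and 1.04 with 12 libraries, and 0.55 and -0.19 without Csalc replicate 3. A fit of WT and Csalc alone called no member (0.0% of genes higher, 0.0111% lower), with all 3 Csalc libraries in it. In FPKM, 7 members had all Csspt libraries above all WT libraries and 7 had all below, against 20.5% and 10.9% of genes tested, and for Csalc 4 lay above and 0 below, against 15.3% and 9.52%. These contrasts share the WT libraries.

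The double mutant was also set against each single mutant. With 12 libraries no member was called against Csspt (0.117% of genes higher, 0.244% lower) or against Csalc (0.462% higher, 0.249% lower), where unadjusted p was under 0.05 for 7 and 4 members and DESeq2 called 1 each (2.25% of genes higher and 1.97% lower than Csspt, 2.87% and 1.94% than Csalc). In the fit without Csalc replicate 3, the double mutant exceeded Csspt for 5 members and was lower for 1, with 7.82% of genes higher and 6.59% lower. The 5 were the 13-lipoxygenases Csa7G449420, Csa4G288610 and Csa4G288070, the 9-lipoxygenase Csa7G374620 and allene oxide synthase Csa7G075600, and the lower one was TIFY 10A (Csa1G597690), at a log2 difference of -1.14 ± 0.31 (adjusted p = 0.0342). The 5 became 0 when double mutant replicate 1 or 2 or Csspt replicate 2 or 3 was left out as well, and between 2 and 6 for the other libraries. The lower call was lost without double mutant replicate 3, Csspt replicate 2 or 3 or WT replicate 3. Double mutant replicate 3 had 7.99 FPKM of Csa4G288610, inside the Csspt range of 7.50 to 16.6, and Csa4G288070 was in the test only through the double mutant. Leaving aside members tested only in that way, 4 of 36 were higher than in Csspt and 1 lower. With the compared groups alone 3 were higher than in Csspt and 1 lower (5.26% and 3.7% of genes), and none differed from Csalc (0.0% in each direction). Against the other 2 Csalc libraries, Csa7G374620, Csa7G374630 and Csa4G288070 were higher and Csa2G023340 lower, with 6.24% and 4.94% of genes. The higher calls became 0 without Csalc replicate 1 or double mutant replicate 1, 1 without Csalc replicate 2 or WT replicate 1 or 3, and 2 to 4 otherwise. Csa2G023340 was lower in each of these fits. With only Csalc replicate 3 left out, and without members tested only through the double mutant, 2 of 36 were higher than in Csalc and 1 lower. Whether the double mutant departs from the sum of both single mutant effects on the log2 scale was tested in the same fit. No member was called with 12 libraries (0.0% of genes in each direction) or without Csalc replicate 3 (0.0157% higher, 0.0105% lower), and unadjusted edgeR p was under 0.05 for 2 and 5 members. DESeq2 called 0 with 12 libraries (0.161% of genes higher, 0.106% lower) and 3 without Csalc replicate 3 (1.7% higher, 1.3% lower): reductase 1 (newGene_1533) at -1.36 ± 0.22, Csa2G023340 at -0.76 ± 0.22 and Csa5G590090 at 1.24 ± 0.39.

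Csalc replicate 3 differed from its group across the pathway. On the log2(FPKM + 1) scale 12 of 39 tested members were over 2-fold higher there than the mean of Csalc replicates 1 and 2 and 9 were over 2-fold lower, against 24.0% and 11.1% of all genes tested. The 13-lipoxygenase Csa4G288610 was 18.6-fold higher in FPKM, Csa5G590090 was 8.69-fold higher, the 9-lipoxygenase Csa2G023940 was 7.49-fold higher and allene oxide cyclase Csa5G644020 was 6.27-fold higher. Reductase 1, Csa7G449420 and JAR6 were lower there, at 10.5, 4.72 and 48.1 FPKM. The morning clock gene LHY was at 2.47 FPKM in that library and at 548 to 590 in WT. LHY was below WT in every other mutant library too. It had 269 to 540 FPKM in Csspt, 512 and 473 in Csalc replicates 1 and 2, and 400 to 489 in the double mutant. In the double mutant against WT it was called lower only with the compared groups alone, not with 12 libraries or without Csalc replicate 3. The part of the state of Csalc replicate 3 in the Csalc values was not tested, nor was the part of the clock in any contrast.

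Genes of the pathway outside the naming rule were read from a list of phospholipases, beta-oxidation enzymes, jasmonate hydroxylases and transcription factors. Of 74 such genes 5 had no counts in any library, among them 3 DAD1 phospholipases and MYB108, and 64 were tested. In the double mutant 6 rose and 2 fell with 12 libraries, against 3.77% and 3.41% of all genes. Without Csalc replicate 3, 16 rose and 14 fell of 64, shares near the 19.2% and 16.8% of all genes, and the median log2 fold change with 12 libraries was 0.07. The chloroplast phospholipase A1-Ibeta2 (Csa3G914060), of the class that releases fatty acids for oxylipins, had 0.376, 0.469 and 0.349 FPKM in WT and 3.93, 2.09 and 2.01 in the double mutant, and rose by 2.60 ± 0.50 (adjusted p = 0.0136). Phospholipase A1-IIgamma (Csa6G519470) rose by 3.17 ± 0.68 (adjusted p = 0.0218) and phospholipase PLIP1 (Csa7G325710) by 2.45 ± 0.56 (adjusted p = 0.0275). All 3 stayed under 4 FPKM. Cytochrome P450 94A1 (Csa3G818260), of the family that in Arabidopsis oxidises the jasmonate conjugate, rose by 1.88 ± 0.36 (adjusted p = 0.014). The 4-coumarate--CoA ligase-like 9 gene Csa1G050290 rose by 0.81 ± 0.19 (adjusted p = 0.0284) and a beta-oxidation multifunctional protein (Csa6G306330) by 0.93 ± 0.25 (adjusted p = 0.0482). The peroxisomal acyl-CoA oxidase 3 gene Csa2G415540 fell by 0.61 ± 0.13 (adjusted p = 0.0247) and the NINJA-family gene AFP3 (Csa3G633290) by 1.08 ± 0.21 (adjusted p = 0.0138). Of the genes named MYC2, the transcription factor that JAZ proteins hold back, Csa3G902270 had 105, 102 and 101 FPKM in WT and 75.0, 79.5 and 82.9 in the double mutant, below WT in every library. It was not called with 12 libraries (log2 fold change -0.49 ± 0.41, adjusted p = 0.503) and fell without Csalc replicate 3 (-0.49 ± 0.11, adjusted p = 0.0067). Csa3G011620 had 26.6, 43.8 and 36.0 FPKM in WT and 57.5, 35.2 and 44.9 in the double mutant, and was not called (0.25 ± 0.42, adjusted p = 0.744).

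Summed over each role, 9-lipoxygenases reached 194 to 223 FPKM in WT, 293 to 352 in Csspt, 296, 349 and 811 in Csalc, and 1071, 506 and 305 in the double mutant. All mutant libraries exceeded all WT libraries, with the double mutant the most spread. The 13-lipoxygenase sum was 65.0 to 79.1 FPKM in WT, 43.6 to 63.9 in Csspt, 81.1, 76.9 and 635 in Csalc, and 202, 118 and 72.0 in the double mutant. With replicate 3 in it, the Csalc mean of 264 FPKM was above the double mutant mean of 131, and the WT range overlapped both groups. The TIFY sum overlapped, at 469 to 668 FPKM in WT and 433 to 705 in the double mutant. The tissue label was checked on 17 carpel, stigma and style markers, of which Csa4G290830 and Csa7G051450 had no counts in any library. Their sum was 391 to 401 FPKM in WT and 358 to 389 in the double mutant, which lay below WT in every library. Of 15 tested, 1 rose and 2 fell in the double mutant with 12 libraries (3.77% of all genes higher, 3.41% lower). Without Csalc replicate 3, 1 rose and 4 fell (19.2% and 16.8%). The list holds Csa2G356640 and Csa6G491000, both named SPATULA like a gene mutated here, so in the mutants it is no independent check.

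Markers of other cell types moved in the same samples. The 16 phloem markers summed to 119 to 148 FPKM in WT, 150 to 166 in Csspt, 124, 136 and 237 in Csalc and 171 to 225 in the double mutant, where 2 of 14 tested rose and 0 fell with 12 libraries and 8 rose and 1 fell without Csalc replicate 3. For all lists here the shares of all genes were 3.77% higher and 3.41% lower with 12 libraries, and 19.2% and 16.8% without Csalc replicate 3. The 4 xylem markers summed to 9.10 to 13.1 FPKM in WT and 12.9 to 14.1 in the double mutant, an overlap. In the double mutant 2 of 4 rose with 12 libraries and 3 of 4 without Csalc replicate 3. With 12 libraries 3 log2 fold changes were positive and 1 negative, with a median of 1.51. The 45 green tissue markers summed to 2097 to 2382 FPKM in WT and 3704 to 4562 in the double mutant, with 6 of 43 tested called higher and 0 lower, and 31 of 44 higher and 2 lower without Csalc replicate 3. None of the phloem or green tissue markers was at 0 in every library. The phloem markers Csa1G703570 and Csa1G703580 had no counts in the double mutant but some in WT. The green tissue marker Csa1G597160 had none in WT. These were scarce, with 29, 12 and 42 counts over all libraries. In Csalc replicate 3 the green tissue sum was 595 FPKM. The 10 pollen markers summed to 19.5 to 26.1 FPKM in WT and 8.94 to 9.93 in the double mutant, mostly from Csa2G000010 (pollen receptor-like kinase 3), with means of 17.9 and 6.36 FPKM. Of 8 tested, 3 had positive and 5 negative log2 fold changes, 0 were called with 12 libraries and Csa2G000010 alone fell without Csalc replicate 3. Of 56 wound and defence genes 13 had no counts, and of 27 tested 5 rose and 1 fell in the double mutant, and 10 rose and 2 fell of 31 without Csalc replicate 3. With 12 libraries, 19 of the 27 tested had positive and 8 negative log2 fold changes, with a median of 0.35. The FPKM sum of the list, which gives abundant genes the most weight, did not rise. It was 1126 to 1214 FPKM in WT and 1028 to 1130 in the double mutant, an overlap. In Csspt it was 1060 to 1081 FPKM and in Csalc 930 to 1031, both below WT. The part of these marker lists in the lipoxygenase and jasmonate results was not tested.

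**Figure D5:**
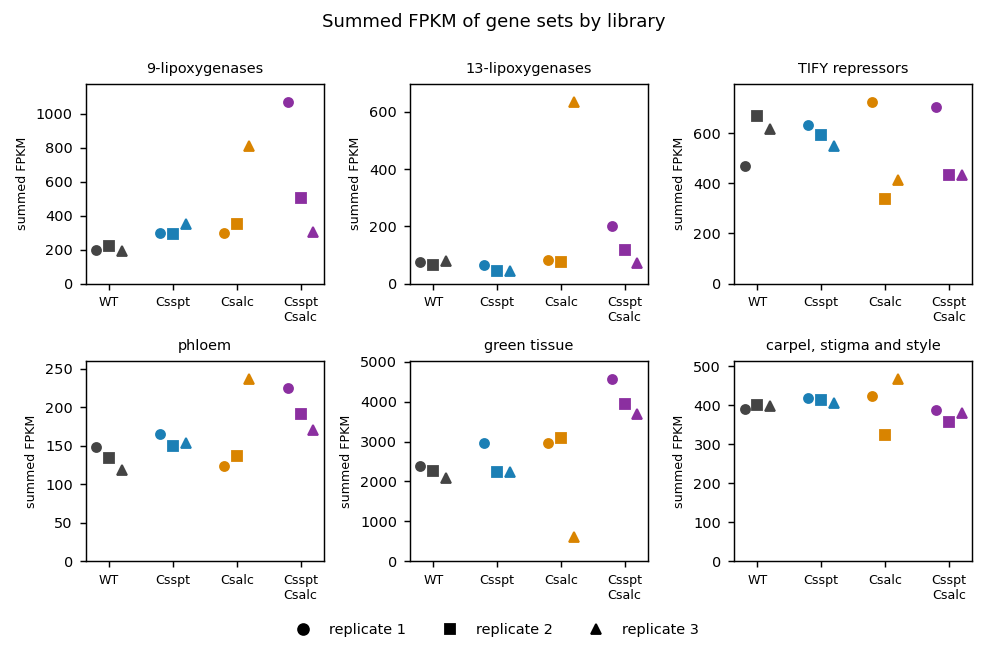
Summed FPKM by library and genotype for 3 groups of members (upper row) and 3 marker lists (lower row), with the symbol giving the replicate number. The 9-lipoxygenase, phloem and green tissue sums of the double mutant lie above those of WT, and Csalc replicate 3 stands apart in the lipoxygenase, phloem and green tissue sums.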

How the data were processed

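Read counts and FPKM were taken from the series table. The submitters' processing notes name HISAT2, HISAT and DESeq2. Not given in the sources used here were tool versions, genome build and annotation source. The count columns hold whole numbers per gene, as deposited by the authors. The FPKM values, per the file headers, are the authors' fragments per kilobase and library size. Whether strand was used in counting is not stated. The DM columns were taken for the Csspt Csalc libraries.

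The test was edgeR 4.0.16 under R 4.3.3 (filterByExpr with a minimum count of 10, TMM scaling, 1 quasi-likelihood fit of all 4 groups, no block), with Benjamini-Hochberg adjustment over all genes per contrast and a threshold of 0.05. A standard error is the log2 fold change over the square root of F. Members that passed the filter only with the help of double mutant libraries are named. The main counts of called members in the double mutant are also given without them, a step added after the data were seen. FPKM ratios used a pseudocount of 1 only where log2(FPKM + 1) is named, and floors take 3 counts over a group. Alternatives were other size factors, no filter, DESeq2 1.42.0, a replicate block, the compared groups alone and each library left out. The steps were tested on simulated data.

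The members and lists were chosen with earlier results of these data known, and list patterns were narrowed to whole words after the gene names, but not their values, had been seen. Members with full statistics are those called with 12 libraries, or against WT without Csalc replicate 3, and the highest in WT of each role. Other pathway genes are up to 8 called with 12 libraries and those named MYC2. Some members singled out for another reason were chosen after their values were seen. P-values measure the spread between these libraries. No pair of replicates was within sampling noise (lowest chi-square per degree of freedom 14.1). No member ID matched the RefSeq table. The deposited KEGG annotation linked 36 members to RefSeq cucumber genes of assembly Cucumber_9930_V3. No sequences are printed.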

Additional observations from a re-analysis of the deposited data

How the results depend on the processing

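Calls depended most on Csalc replicate 3, as given in the report. For members called against WT, no fold change against WT turned its direction under the alternatives listed above. Direction was not compared for calls against a single mutant, or in the added DESeq2 and replicate block fits without Csalc replicate 3. Member calls in the double mutant against WT were 8 with DESeq2, 0 with a replicate block and 17 with the compared groups alone, against 3 in the report. With 1 library left out they ran from 0 to 18. The compared groups alone gave 6 calls in Csspt against WT and 4 in the double mutant against Csspt. DESeq2 gave 1 call in Csalc against WT and 1 each in the double mutant against Csspt and Csalc. With 1 or 2 libraries left out the calls ran from 0 to 4 in Csspt against WT, 0 to 2 in Csalc against WT, 0 to 7 against Csspt, 0 to 5 against Csalc and 0 to 1 for the departure from additivity. The other pathway genes gave 13 calls with DESeq2 and 33 with the compared groups alone in the double mutant, 4 with the compared groups alone in Csspt and 2 with DESeq2 in Csalc, and ran from 0 to 30, 0 to 3 and 0 to 5 with 1 library left out. Settings added after the data were seen, without Csalc replicate 3, gave with DESeq2 18, 5, 2, 10, 9 and 3 member calls (double mutant, Csspt and Csalc against WT, double mutant against Csspt and Csalc, additivity), and with a replicate block 19, 3, 1, 4, 3 and 0. The replicate block is not a pairing from the design: same-numbered libraries correlated in their deviations at -0.252 to 0.208 over 18 pairs. The cause of these differences was not tested.

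Genes with under about 20 counts per library, such as Csa4G288070 and Csa4G286960, rest on few reads. For reads shared between copies with 1 RefSeq hit, only the sum of a pair is sure.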
